A study of Homo sapiens with 8 samples.

Results

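NF-kB is a family of dimeric transcription factors that switches on inflammatory and survival genes after cytokines, microbial products or cell stress. In resting keratinocytes the dimers are held in the cytoplasm by inhibitors of the IkB family, and kinases of the IKK complex release them by marking the inhibitor for destruction. Several of the first genes that NF-kB switches on encode its own inhibitors and subunits, so their transcripts are commonly used as a record of recent pathway activity. The 10 genes described here were matched by symbol and were chosen with earlier results of these data known. The subunit genes were NFKB1, NFKB2, RELA and RELB, and the genes of the IkB family were NFKBIA and NFKBIZ. The others were the inhibitor gene TNFAIP3, the ligand TNF, and the target genes TNFAIP2 and ICAM1. Each symbol matched 1 of the 24252 rows listed per library.

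RNA was sequenced from HaCaT, an immortalised line of human skin keratinocytes, in 4 libraries labelled OGD-R and 4 labelled Control. OGD-R cells were deprived of oxygen and glucose, then supplied with both again, and were sampled early according to the series' design text. Control cells carry no treatment label, and how long deprivation and resupply lasted is not stated in the material used here. Whether the replicates are separate cultures is not labelled, so the p-values below reflect library-to-library spread that may be technical. The files name no unit, and their values were read from their sums and spacing as FPKM, fragments scaled by transcript length and by the library's total, a unit that allows genes to be compared per length.

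The Control libraries stood apart from each other. Over the 11740 genes tested, log2 values correlated at 0.992 between Controls 1 and 2 and at 0.991 between Controls 3 and 4, but at 0.874 to 0.881 across these pairs, and at 0.992 to 0.993 among OGD-R libraries (across genes, which do not count as independent replicates). OGD-R libraries correlated at 0.940 to 0.947 with Controls 1 and 2 and at 0.879 to 0.887 with Controls 3 and 4, so the pairs of Controls lay farther from each other than OGD-R lay from Controls 1 and 2. The summed FPKM was 467589 to 475385 in OGD-R, 475131 and 460525 in Controls 1 and 2, and 428984 and 431282 in Controls 3 and 4. From the spacing of low values, 1 fragment on 1000 bases was worth 0.0451 to 0.0514 FPKM in OGD-R and 0.0402 to 0.0594 FPKM in Control, with Control 1 the deepest and Control 4 the shallowest library. All 7 keratinocyte markers examined were above 1 FPKM, led by KRT14, and of the 20 markers of fibroblasts, endothelium, leucocytes and melanocytes only COL1A1 and CD68 reached it; COL1A2, AIF1 and TYR were at 0 throughout. The leucocyte list summed to 3.28 to 4.01 FPKM in OGD-R and to 12.5 to 16.9 FPKM in Control, nearly all of it CD68, with PTPRC at 0.0245 FPKM or less. The part of these differences in the results below was not tested, and every Control value is therefore given for the members. In RNA from whole cultures, fewer cells expressing a gene and less RNA per cell cannot be told apart.

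NF-kB dimers bind a site of 10 bases, the kappaB consensus. It was searched for on both strands in the 250 bases before each start that RefSeq lists for the members (build GRCh38.p14). Of the 10 members 9 matched an entry and RELB did not. The consensus lay before a start of 5 of these 9 genes, namely NFKB1, NFKB2, NFKBIA, NFKBIZ and TNFAIP3, and before none of RELA, TNFAIP2, TNF and ICAM1. Of all 27305 gene symbols with a listed start, 11.8% had the consensus before a start. By start rather than by gene, the consensus lay in 7 of 14 windows of the members and in 9.96% of all 35116 windows. Some of the 14 windows belong to the same gene and do not count as independent. A match to the letters is a description of the window and not evidence of binding. Some windows lay in annotated exons, among them all 250 bases for ICAM1 and for the second start of NFKB2, and 241 bases for the first start of NFKB1. The ICAM1 window, the TNFAIP3 matches, all NFKB2 matches and the match at the second NFKBIZ start lay past the gene starts given below. The bases before the ICAM1 gene start were thus not searched. The NFKB2 window that ended just before its gene start held 0 matches. The matches are shown in the orientation of the gene because they lie before starts of genes of unlike behaviour in these libraries, with the consensus in capitals.
NFKBIA (chr14:35404750-35404999, minus strand): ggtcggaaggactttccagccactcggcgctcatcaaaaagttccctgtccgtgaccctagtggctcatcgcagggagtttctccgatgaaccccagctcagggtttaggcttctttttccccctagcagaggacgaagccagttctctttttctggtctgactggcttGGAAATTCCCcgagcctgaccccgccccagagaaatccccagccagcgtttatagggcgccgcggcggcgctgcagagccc
NFKBIZ (chr3:101827740-101827989, plus strand): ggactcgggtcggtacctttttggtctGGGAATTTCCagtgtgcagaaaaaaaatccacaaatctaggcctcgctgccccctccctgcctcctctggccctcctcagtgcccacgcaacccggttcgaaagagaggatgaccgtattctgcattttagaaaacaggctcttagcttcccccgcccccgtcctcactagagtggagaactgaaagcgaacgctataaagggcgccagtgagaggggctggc
TNFAIP3 (chr6:137867188-137867217, plus strand): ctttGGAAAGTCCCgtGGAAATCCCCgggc
NFKB1 (chr4:102501300-102501329, plus strand): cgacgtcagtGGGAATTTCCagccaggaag
NFKB2 at its second start (chr10:102394461-102394490, plus strand): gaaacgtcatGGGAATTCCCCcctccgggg
NFKB2 at the third start (chr10:102395674-102395703, plus strand): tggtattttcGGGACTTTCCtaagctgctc

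In NFKBIA and NFKBIZ the whole window before the start is printed, and in the others 30 bases around a match. The match in NFKBIA began 81 bases before the start and that in NFKBIZ 223 bases before it. TNFAIP3 held a pair of matches side by side, 67 and 55 bases before the start. In NFKB2 at the second start a pair of matches overlapped, shifted by 1 base, which is why 11 capitals stand together. Further matches, 78 bases before the second start and 176 before the third start of NFKB2 and 239 before the second start of NFKBIZ, are not printed.

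Across the 10 genes, OGD-R libraries lay close together while Control libraries fell in 2 places, so that most members had low values in Controls 1 and 2 and high values in Controls 3 and 4. Subunit, TNFAIP3 and ICAM1 transcripts were lower in every OGD-R library than in every Control library, whereas NFKBIA, NFKBIZ and TNFAIP2 in OGD-R lay above Controls 1 and 2 and below Controls 3 and 4. With limma on log2(FPKM + 1) over all 11740 genes, RELA was the 1 member called lower at a Benjamini-Hochberg adjusted p under 0.05 and 0 were called higher, where 9.69% of all genes tested were called lower and 10.2% higher. At an unadjusted p under 0.05, 4 members were lower (RELA, NFKB2, TNFAIP3 and RELB) and 0 higher, where 17.0% of all genes tested were lower and 17.2% higher. The median log2 fold change was -0.93 over the members and 0.02 over all genes tested. The median of the members includes TNF and ICAM1, which entered the test through Controls 3 and 4 alone. The median SD of log2 values over the members was 0.09 in OGD-R and 1.25 in Control; over all genes tested it was 0.09 in OGD-R and 0.29 in Control.

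**Figure D1:**
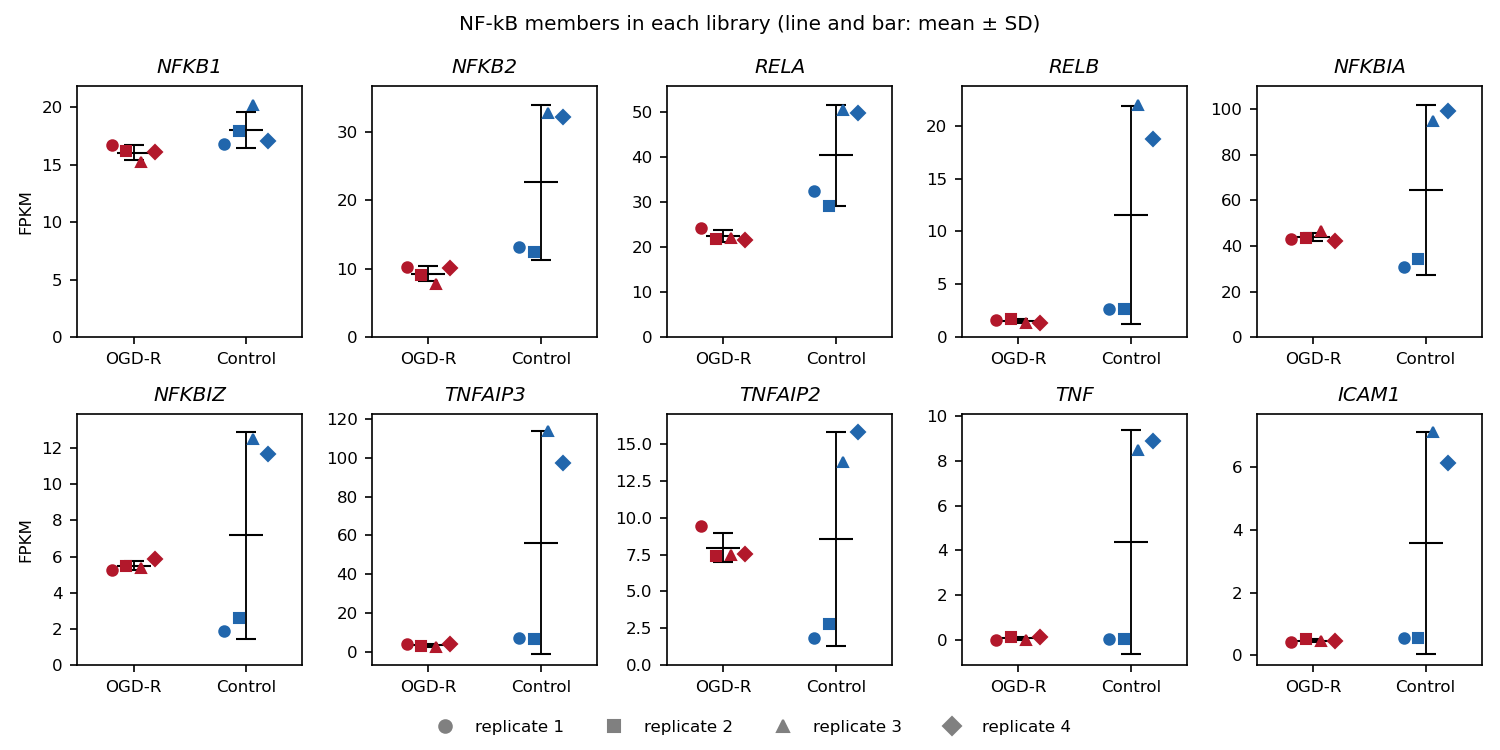
FPKM (vertical axis, one scale per gene) of the 10 members in each OGD-R library (red) and each Control library (blue), with symbols for replicate numbers and a line and bar for the mean ± SD of 4 libraries. In 9 of the 10 panels Controls 3 and 4 stand above Controls 1 and 2, and NFKB1 is the panel without this split.

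RELA encodes p65, the subunit that carries the transcription activation domain of the classical dimer (ENSG00000173039, chromosome 11, 65653596 to 65663094, minus strand, GRCh38). It was at 24.4, 21.9, 22.1 and 21.7 FPKM across OGD-R 1 to 4, against 32.6, 29.1, 50.4 and 49.9 FPKM in Controls 1 to 4. No OGD-R library reached a Control. Its mean was 22.5 ± 1.26 FPKM in OGD-R and 40.5 ± 11.2 FPKM in Control (SD, n = 4 each), which is a log2 fold change of -0.78 ± 0.19 (SE; adjusted p = 0.0230 by limma). This call survived neither the removal of any one OGD-R library (limma adjusted p between 0.0533 and 0.0685) nor quantile normalisation (0.0614).

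NFKB1 encodes p105, the precursor of p50, which pairs with p65 (ENSG00000109320, chromosome 4, 102501329 to 102617302, plus strand). It was at 16.7, 16.1, 15.2 and 16.1 FPKM across OGD-R 1 to 4, against 16.8, 17.9, 20.2 and 17.1 FPKM in Controls 1 to 4. The highest OGD-R library and the lowest Control differed by less than the spread within either group. Its log2 fold change was -0.15 (95% interval -0.35 to 0.05; limma adjusted p = 0.248), the narrowest interval of the 10 genes in the comparison with all libraries.

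NFKB2 and RELB encode the partners of the non-canonical pathway: p100, which is cut to p52, and RelB. NFKB2 (ENSG00000077150, chromosome 10, 102394110 to 102402529, plus strand) was at 10.2, 9.08, 7.74 and 10.1 FPKM across OGD-R 1 to 4, against 13.2, 12.5, 32.7 and 32.2 FPKM in Controls 1 to 4. RELB (ENSG00000104856, chromosome 19, 45001430 to 45038198, plus strand) was at 1.64, 1.68, 1.35 and 1.37 FPKM across OGD-R 1 to 4, against 2.70, 2.67, 22.0 and 18.7 FPKM in Controls 1 to 4. For both genes every OGD-R library lay below every Control, by a small margin for Controls 1 and 2 and a wide one for Controls 3 and 4. Neither passed the test, with log2 fold changes of -1.07 for NFKB2 (SE 0.330; limma adjusted p = 0.0547) and -1.82 for RELB (SE 0.633; limma adjusted p = 0.0792). Leaving out either Control 1 or Control 2 brought the adjusted p of both below 0.05 (limma, 0.0254 to 0.0372), leaving out Control 3 or Control 4 raised it to between 0.103 and 0.155, and leaving out any OGD-R library raised it to between 0.108 and 0.167.

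The make-up of the subunit transcripts was compared by adding REL, which encodes the remaining subunit c-Rel, so that all 5 genes of the family were summed. The sum was 57.0, 52.6, 50.3 and 52.7 FPKM across OGD-R 1 to 4, against 67.3, 64.9, 129.8 and 123 FPKM in Controls 1 to 4. RELB made up 2.60% to 3.19% of it in OGD-R, against 4.02%, 4.11%, 16.9% and 15.2% in Controls 1 to 4. NFKB1 made up 29.3% to 30.7% in OGD-R, against 24.9%, 27.6%, 15.6% and 13.85% in Controls. REL made up 6.63% to 7.75% in OGD-R, against 3.04%, 4.22%, 3.51% and 4.37% in Controls, so its share was higher in every OGD-R library although its own level, 3.50 to 4.05 FPKM in OGD-R and 2.04, 2.74, 4.55 and 5.39 FPKM in Controls 1 to 4, lay between the Controls.

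**Figure D2:**
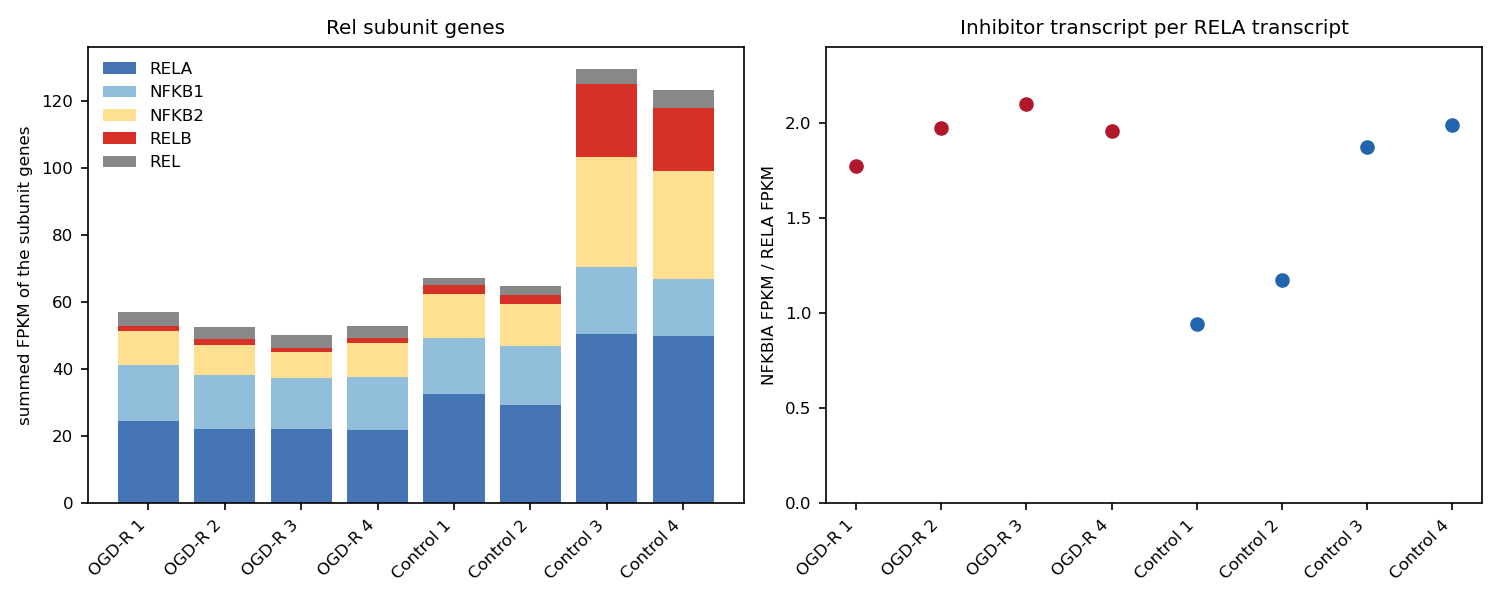
Left, summed FPKM of the 5 subunit genes stacked by gene in each library; right, FPKM of NFKBIA divided by FPKM of RELA in each OGD-R (red) and Control (blue) library. The stacks of Controls 3 and 4 reach 129.8 and 123 FPKM with a large RELB and NFKB2 part, and the ratio of Controls 1 and 2 lies below that of the other 6 libraries.

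NFKBIA encodes IkB alpha, which holds p65 in the cytoplasm and is resynthesised after each round of activation (ENSG00000100906, chromosome 14, 35401511 to 35404749, minus strand). It had the highest level of the members in OGD-R, at 43.2, 43.3, 46.4 and 42.4 FPKM across OGD-R 1 to 4, against 30.7, 34.2, 94.6 and 99.2 FPKM in Controls 1 to 4. The OGD-R values lay in the gap between the Controls, and its log2 fold change was -0.35 (95% interval -1.25 to 0.55; limma adjusted p = 0.564). Set against RELA in the same library, NFKBIA stood at 1.77, 1.98, 2.10 and 1.96 times the RELA level in OGD-R 1 to 4, against 0.941, 1.18, 1.88 and 1.99 times in Controls 1 to 4. The ratio in OGD-R thus overlapped Controls 3 and 4 and lay above Controls 1 and 2, with a log2 difference of 0.45 (exact two-sided permutation p = 0.229, where 4 against 4 libraries allow no p below 0.0286).

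NFKBIZ encodes IkB zeta, a nuclear member of the IkB family that acts in keratinocytes on genes of the interleukin 17 and interleukin 36 response (ENSG00000144802, chromosome 3, 101827991 to 101861022, plus strand). It was at 5.27, 5.46, 5.39 and 5.87 FPKM across OGD-R 1 to 4, against 1.87, 2.61, 12.5 and 11.7 FPKM in Controls 1 to 4. These values again filled the gap between the Controls without touching them. The mean log2 values of the groups were almost equal, with a 95% interval of the difference from -1.17 to 1.17 (limma adjusted p = 0.99988), although no OGD-R library lay within the range of either pair of Controls.

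TNFAIP3 encodes A20, an enzyme that edits ubiquitin chains and ends signalling from the tumour necrosis factor and interleukin 1 receptors (ENSG00000118503, chromosome 6, 137867188 to 137883312, plus strand). It was at 4.00, 3.16, 2.50 and 3.76 FPKM across OGD-R 1 to 4, against 7.16, 6.74, 113.7 and 97.6 FPKM in Controls 1 to 4. Every OGD-R library lay below every Control. Its log2 fold change of -2.75 was the widest of the members (SE 0.934; limma adjusted p = 0.0742), and the test was not passed, with a 95% interval from -4.90 to -0.60. TNFAIP3 stood at 0.0539 to 0.0926 times the NFKBIA level in OGD-R, against 0.234, 0.197, 1.20 and 0.984 times in Controls 1 to 4. So NFKBIA, NFKBIZ and TNFAIP3 did not keep one order against the Controls. A20 transcripts were below Controls 1 and 2 in the same libraries in which IkB alpha and IkB zeta transcripts were above them.

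TNF encodes tumour necrosis factor, both a product of NF-kB and one of its strongest inducers (ENSG00000232810, chromosome 6, 31575567 to 31578336, plus strand). It was at 0, 0.125, 0 and 0.127 FPKM across OGD-R 1 to 4, against 0.0423, 0.0487, 8.48 and 8.90 FPKM in Controls 1 to 4. From the spacing of low values these levels correspond to 0, 4.64, 0 and 4.30 fragments in OGD-R 1 to 4 and to 1.76, 1.94, 309 and 251 fragments in Controls 1 to 4, so a difference between OGD-R and Controls 1 and 2 was not detectable at this depth. The log2 fold change was -1.58 (SE 0.800; limma adjusted p = 0.202).

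ICAM1 encodes an adhesion molecule by which leucocytes attach to activated keratinocytes (ENSG00000090339, chromosome 19, 10270835 to 10286615, plus strand). It was at 0.410, 0.514, 0.466 and 0.467 FPKM across OGD-R 1 to 4, against 0.542, 0.543, 7.13 and 6.12 FPKM in Controls 1 to 4. All OGD-R libraries were lowest, but the margin to Controls 1 and 2 was smaller than the spread within OGD-R, with a log2 fold change of -1.23 that missed the threshold (SE 0.576; adjusted p = 0.174 by limma). TNF and ICAM1 were under 1 FPKM in every OGD-R library and entered the test through Controls 3 and 4.

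TNFAIP2 encodes a cytoplasmic protein induced by tumour necrosis factor (ENSG00000185215, chromosome 14, 103123442 to 103137439, plus strand). It was at 9.42, 7.42, 7.48 and 7.53 FPKM across OGD-R 1 to 4, against 1.85, 2.76, 13.8 and 15.8 FPKM in Controls 1 to 4. As for NFKBIZ, OGD-R lay between the Controls, and the log2 fold change was 0.31 (95% interval -1.004 to 1.63; limma adjusted p = 0.735).

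Counted over the members, 6 of 10 had every OGD-R library below every Control, against 14.8% of all genes tested, and 0 had every OGD-R library above, against 15.2%. Of the 6, ICAM1 passed the filter on mean level through Controls 3 and 4 alone. The highest NFKB1 value in OGD-R was 16.72 FPKM and the lowest in Control was 16.75 FPKM. A further 3 had every OGD-R library above Controls 1 and 2 and below Controls 3 and 4, against 6.79% of all genes tested; this last count was chosen after the values were seen. Within OGD-R the members kept the order NFKBIA, RELA, NFKB1, NFKB2, TNFAIP2, NFKBIZ, TNFAIP3, RELB, ICAM1 and TNF by FPKM, and NFKB2 and TNFAIP2 were the only neighbours whose ranges overlapped.

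The direction of several members depended on which Controls were compared. Without Controls 3 and 4, limma called 4 members lower (NFKB2, RELA, RELB and TNFAIP3) and 3 higher (NFKBIA, NFKBIZ and TNFAIP2) in OGD-R. Of all genes tested, 32.4% were called lower and 22.8% higher. For a set this small, both counts are near those shares. The log2 fold change was then 1.45 for TNFAIP2 (SE 0.131; adjusted p = 2.41e-05 by limma), 1.01 for NFKBIZ (SE 0.104; adjusted p = 5.15e-05) and 0.42 for NFKBIA (SE 0.068; adjusted p = 0.000699). TNFAIP3 fell by 0.88 and RELB by 0.56 on the log2 scale in that comparison (limma adjusted p = 0.000591 and 0.00117). RELA and NFKB2 each fell by 0.44.

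Without Controls 1 and 2, 9 members were called lower and 0 higher, where 28.4% of all genes tested were called lower and 39.2% higher. At an unadjusted p under 0.05 NFKB1 was lower as well, with a log2 fold change of -0.20 (limma adjusted p = 0.0512). Of the 9, TNF and ICAM1 were under 1 FPKM in every OGD-R library and in Controls 1 and 2. They passed the filter on mean level through the Controls kept here alone, which fixes the sign of their fold change. The count of 9 is therefore not evidence about the members as a whole. TNFAIP3 fell by 4.62, TNF by 3.19 and RELB by 3.09 on the log2 scale, and NFKBIA, NFKBIZ and TNFAIP2 fell by 1.13, 1.01 and 0.82. RELA, NFKB2, RELB and TNFAIP3 were therefore called lower whichever pair of Controls was left out. NFKB1 was called in neither comparison, and NFKBIA, NFKBIZ and TNFAIP2 were called in opposite directions. The share of all genes tested with each of these joint outcomes was not counted, so they do not set the members apart from other genes. Both comparisons share the OGD-R libraries, and their p-values rest on 2 Controls and the close OGD-R libraries.

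**Figure D3:**
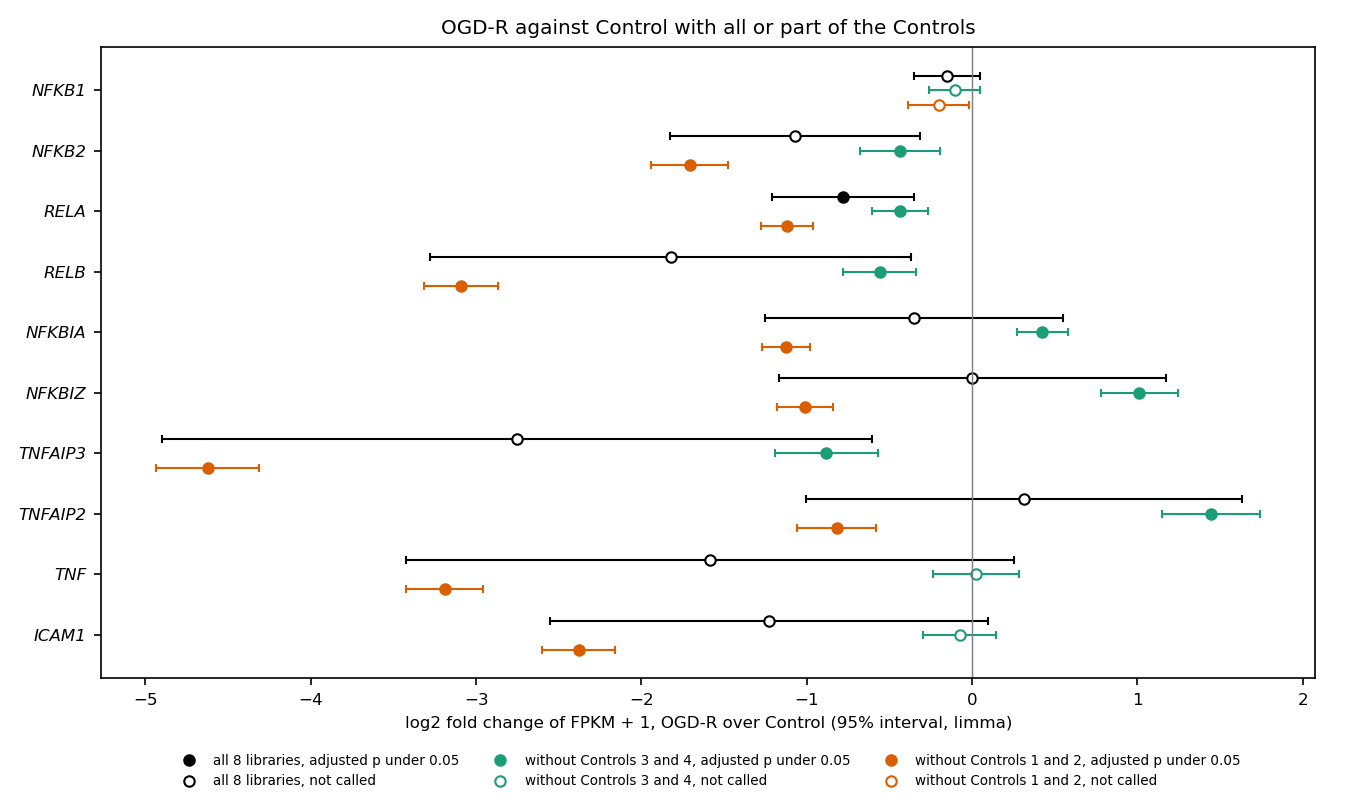
Log2 fold change of FPKM + 1 in OGD-R over Control (horizontal axis) with its 95% interval from limma for each member, with all 8 libraries (black), without Controls 3 and 4 (green) and without Controls 1 and 2 (orange); filled points have an adjusted p under 0.05. The green and orange points of NFKBIA, NFKBIZ and TNFAIP2 lie on opposite sides of 0, from 1.45 down to -0.82 for TNFAIP2, and those of TNFAIP3 run from -0.88 to -4.62.

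The rest of the pathway was read from 5 lists of 75 genes, 64 of which were tested; 11 of them (17.2%) were called lower and 2 (3.12%) higher in OGD-R with all libraries, against 9.69% and 10.2% of all genes tested. Calls of 1 or 2 genes in a short list are near these shares. Of the 64, 6 of the other known targets and 1 of the other negative regulators were under 1 FPKM in every OGD-R library. They passed the filter on mean level through Controls alone, and CSF2, which was called lower, is one of them. The median log2 fold change of all genes tested was 0.02. Among the other subunit and IkB genes, 1 of 5 was called lower and 0 higher: NFKBIE, which encodes IkB epsilon, was at 1.31, 1.94, 1.34 and 1.77 FPKM across OGD-R 1 to 4, against 2.59, 2.73, 8.08 and 6.67 FPKM in Controls 1 to 4 (log2 fold change -1.10; limma adjusted p = 0.0428). This call was lost without any one OGD-R library (limma adjusted p between 0.0847 and 0.113), without Control 3 or Control 4 (0.0760 and 0.0882), without the filter on low values (0.0679) and when scaled without mitochondrial genes (0.0563). REL, given above, was not called with all libraries (limma adjusted p = 0.788). Over the list the median log2 fold change was -0.36.

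Of 20 genes of the IKK complex and the signalling above it, 4 were called lower and 0 higher, with a median log2 fold change of -0.11. SHARPIN and RBCK1 encode 2 parts of LUBAC, the enzyme that builds linear ubiquitin chains. RNF31, which encodes another part and is named here after its values were seen, was not called (log2 fold change -0.15; limma adjusted p = 0.306). SHARPIN was at 11.2 to 13.45 FPKM in OGD-R and 16.4, 16.5, 17.5 and 17.3 FPKM in Controls 1 to 4, a narrow split in the Controls, and fell by 0.44 on the log2 scale (limma adjusted p = 0.00858). RBCK1 fell by 0.91 (limma adjusted p = 0.0324), with 31.2 to 34.97 FPKM in OGD-R and 46.5, 42.75, 87.2 and 83.3 FPKM in Controls 1 to 4. Its call was lost without any one OGD-R library (limma adjusted p between 0.0727 and 0.0882), without Control 3 or Control 4 (0.0642 and 0.0631), when scaled without mitochondrial genes (0.0561) and after quantile normalisation (0.0734). IRAK1, a kinase of interleukin 1 and Toll-like receptors, fell by 0.96 (limma adjusted p = 0.0115) and had the reverse split, with 37.2 to 48.8 FPKM in OGD-R and 106.9, 102.5, 74.3 and 60.0 FPKM in Controls 1 to 4. TRAF3, an adaptor that restrains the non-canonical pathway, fell by 0.53 (limma adjusted p = 0.0108), with 4.73 to 5.89 FPKM in OGD-R and 7.38, 7.63, 9.25 and 7.90 FPKM in Controls 1 to 4. The calls of SHARPIN, IRAK1 and TRAF3 were kept without any one library. The kinase genes CHUK and IKBKB and the scaffold gene IKBKG, named here after their values were seen, had log2 fold changes of -0.26, 0.23 and -0.07, none past the threshold (adjusted p = 0.223, 0.224 and 0.623 by limma).

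Of 12 tested genes among 14 other negative regulators, 2 were called lower and 0 higher (median log2 fold change -0.40). TNIP2, which encodes a partner of A20, was at 9.87 to 11.9 FPKM in OGD-R and 13.2, 15.3, 17.2 and 15.5 FPKM in Controls 1 to 4 (log2 fold change -0.47; limma adjusted p = 0.0160), a call lost without OGD-R 2 (0.0596) or OGD-R 3 (0.0587). ITCH, a ubiquitin ligase that works with A20, fell by 0.78 on the log2 scale (limma adjusted p = 0.0284), with 21.6 to 28.2 FPKM in OGD-R and 28.2, 37.6, 51.4 and 50.5 FPKM in Controls 1 to 4. Its call was lost without OGD-R 1, OGD-R 2 or OGD-R 3 (limma adjusted p between 0.0808 and 0.0844), without Control 3 or Control 4 (0.0637 and 0.0580), when scaled without mitochondrial genes (0.0554) and after quantile normalisation (0.0692).

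Among 8 tested genes of 12 receptors, 2 were called higher and 1 lower, the only list with calls upward when all libraries were compared (median log2 fold change -0.31). TLR3, the receptor for double-stranded RNA, was at 1.57, 1.52, 1.78 and 1.81 FPKM across OGD-R 1 to 4, against 0.698, 0.567, 0.539 and 0.452 FPKM in Controls 1 to 4. The groups did not overlap and the Controls showed no wide split, but TLR3 was above 1 FPKM in OGD-R alone and entered the test through it (log2 fold change 0.77, SE 0.0963; limma adjusted p = 0.00135). TNFRSF1A, the main receptor for tumour necrosis factor, had 45.4 to 51.4 FPKM in OGD-R and 41.5, 39.9, 35.6 and 32.6 FPKM in Controls 1 to 4 (log2 fold change 0.34; limma adjusted p = 0.0477). LTBR, the lymphotoxin beta receptor, which feeds the non-canonical pathway, had 46.5 to 52.4 FPKM in OGD-R and 58.4, 59.4, 71.5 and 79.1 FPKM in Controls 1 to 4 (log2 fold change -0.43; limma adjusted p = 0.0349). Without any one OGD-R library both calls were lost, with limma adjusted p between 0.0978 and 0.131 for TNFRSF1A and between 0.0685 and 0.105 for LTBR. The same held without Control 3 or Control 4 (0.103 and 0.0827 for TNFRSF1A, 0.0819 and 0.0558 for LTBR), and LTBR was also lost when scaled without mitochondrial genes (0.103) and after quantile normalisation (0.156).

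Of 19 tested genes among 24 other known targets, 3 were called lower (IER3, IL1B and CSF2) and 0 higher, and the median log2 fold change was -1.37. IER3, a stress-induced survival gene, was at 29.9, 30.6, 31.1 and 33.8 FPKM across OGD-R 1 to 4, against 96.5, 98.8, 269.9 and 298 FPKM in Controls 1 to 4. IL1B, which encodes the cytokine interleukin 1 beta, had 5.37 to 6.91 FPKM in OGD-R and 19.3, 19.2, 70.97 and 69.4 FPKM in Controls 1 to 4 (log2 fold change -2.43; limma adjusted p = 0.00867). The adjusted p of IER3 and of IL1B stayed below 0.05 in each alternative that was run, including those without either pair of Controls. CSF2, the gene of the growth factor GM-CSF, had 0, 0.105, 0.112 and 0.594 FPKM in OGD-R 1 to 4 and 1.75, 3.94, 38.2 and 37.4 FPKM in Controls 1 to 4, so it entered the test through the Controls alone (limma adjusted p = 0.0298). The call of CSF2 was lost without any one OGD-R library (limma adjusted p between 0.0676 and 0.0811) and without Control 3 or Control 4 (0.0611 and 0.0564).

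Over the targets, 5 of 19 (26.3%) were called higher and 4 (21.1%) lower without Controls 3 and 4 (median log2 fold change -0.01), where 22.8% of all genes tested were higher and 32.4% lower and their median was -0.05. Without Controls 1 and 2, 18 were called lower and 0 higher (median -2.61), where 28.4% of all genes tested were lower and 39.2% higher and their median was 0.09. Of the 19, 6 were under 1 FPKM in every OGD-R library and passed the filter on mean level through Controls alone, which fixes the sign of their fold change without Controls 1 and 2, so neither that count nor that median, nor the median of -1.37 with all libraries, is evidence about the targets as a whole.

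**Figure D4:**
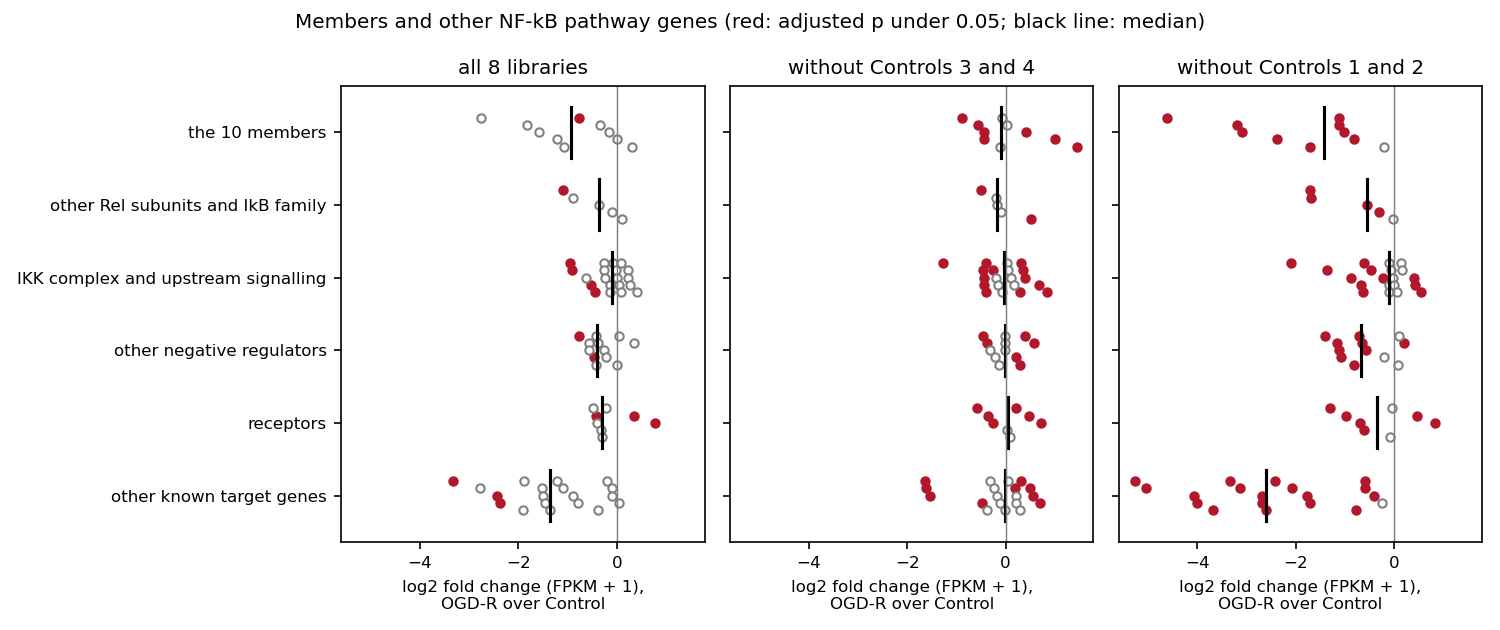
Log2 fold change of FPKM + 1 in OGD-R over Control (horizontal axis, same scale in each panel) for the 10 members and the genes of 5 pathway lists, with all libraries and without either pair of Controls; each point is a gene, red where the adjusted p is under 0.05, and the black line is the median of the row. The target genes move from a median of -0.01 without Controls 3 and 4 to -2.61 without Controls 1 and 2, while the median of the IKK row stays near 0.

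The mean z-score of the 10 members was -0.36 to -0.59 in OGD-R, -0.58 and -0.43 in Controls 1 and 2, and 1.56 and 1.33 in Controls 3 and 4. The genes outside the members whose log2 values followed this mean most closely over the 8 libraries were ARVCF, FOXO3, SIAH2, NLRP1 and LIF, with Pearson correlations between 0.997 and 0.999. NLRP1, an inflammasome sensor of keratinocytes, was at 1.81 to 2.04 FPKM in OGD-R and at 1.52, 1.999, 9.18 and 7.85 FPKM in Controls 1 to 4. LIF, a cytokine of the interleukin 6 family, was at 0.522 to 0.787 FPKM in OGD-R and at 0.678, 0.736, 5.61 and 5.15 FPKM in Controls 1 to 4. In total 717 of 11070 genes with a symbol (6.48%) reached a correlation of 0.95, where the mean z-score itself was above 0 in Controls 3 and 4 alone.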

How the data were processed

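The authors deposited a table for each library that lists gene IDs, symbols and values; no aligner, counting tool, genome build or annotation is named in the material used here. The deposited values carry no unit and were read as FPKM: their sums differed between libraries and stayed under 1000000, and in single-exon genes the same product of value and length recurred (8 to 14 genes per library), which was taken as 1 fragment. The column of Control 3 has a shortened heading, and its sample was taken from the record of files. Per the labels' protocols, total RNA was used, with a NEBNext and a SMARTer kit both named.

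Log2(FPKM + 1) values of the 11740 genes whose mean over all libraries reached 1 FPKM were compared with limma 3.58.1 in R 4.3.3 (intensity trend, two-sided, Benjamini-Hochberg adjustment over all of them, threshold 0.05), after the script had been tested on simulated data. Changes of low genes are understated on this scale. The members and lists were chosen with earlier results of these data known, and so were the comparisons that leave out a pair of Controls. All members were named, with up to 4 called genes of smallest p from each list and the 5 genes most like the members. Gene coordinates come from GENCODE 29 (GRCh38), matched by ID, and sequences from RefSeq. Alternatives covered pseudocounts, filters, scalings, the prior, a replicate block and libraries left out. Figures were drawn with matplotlib 3.10.9. How reads were divided among overlapping genes is not stated.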

Additional observations from a re-analysis of the deposited data

Results flagged for a closer look

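Of 22 groups of 4 values examined (each member and the NFKBIA to RELA ratio, in each group), 2 held a library far from the other 3, where chance gives about 1 in 20. Both were OGD-R 1. RELA was at 24.4 FPKM there, against 21.7 to 22.1 FPKM in the other OGD-R libraries, and TNFAIP2 was at 9.42 FPKM, against 7.42 to 7.53 FPKM in the others. Without OGD-R 1 the log2 fold change of RELA was -0.82 (limma adjusted p = 0.0533). Control groups that fell into 2 pairs could not be flagged by this rule. The count of 2 in 22 groups therefore cannot be set against the chance rate of 1 in 20.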

How the results depend on the processing

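Which Controls were kept mattered most. Without Controls 3 and 4, 2673 genes were higher and 3807 lower in OGD-R, 3 members higher and 4 lower, and 19 genes of the pathway lists higher and 17 lower, against 1202, 1138, 0, 1, 2 and 11 with all libraries. Log2 fold changes then turned to 0.42 for NFKBIA, 1.01 for NFKBIZ and 0.0214 for TNF. Without Controls 1 and 2, these counts were 4603, 3337, 0, 9, 6 and 42, and TNFAIP2 turned to -0.82. With one library left out at a time, higher genes numbered 711 to 1426 and lower genes 561 to 1312, with 0 to 4 members lower and 1 to 2 list genes higher and 5 to 15 lower. The log2 fold change of NFKBIZ then ran from -0.39 to 0.35 and that of TNFAIP2 from -0.13 to 0.72. NFKBIZ, whose log2 fold change was near 0 with all libraries, also turned to 0.0749 with a pseudocount of 0.1 FPKM and to 0.0554 when scaled without mitochondrial genes, which left 7 list genes lower. A filter at a mean of 5 FPKM gave 689 higher genes, fewer being tested, and 1 list gene higher. No member was called after quantile normalisation (0 lower), and 3 of the 5 most similar genes were the same with the smaller pseudocount. The NFKBIA to RELA ratio had log2 differences of 0.01 (without Controls 1 and 2) to 0.89 (without Controls 3 and 4) and passed the exact permutation test in no comparison, where 4 OGD-R against 2 Control libraries allow no p below 0.0667. The cause of these shifts was not tested.

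Replicate numbers were not shown to pair the libraries. Deviations of same-numbered libraries correlated at 0.045 to 0.0646, and 1 of 4 OGD-R libraries correlated best with its own number. Deviations of OGD-R 1 and 2 correlated at 0.045 to 0.109 with those of Controls 1 and 2. With Controls 3 and 4 they correlated at -0.0871 to -0.0268. Deviations of OGD-R 3 and 4 correlated at 0.053 to 0.113 with those of Controls 3 and 4. With Controls 1 and 2 they correlated at -0.106 to -0.0276. Deviations were taken from the mean of each group, so they cancel out within a group. With the Controls in tight pairs, opposite signs against the pairs follow from this centring and are not a finding. Why an OGD-R library took one sign or the other was not tested. With the number as a replicate block, 625 genes were higher and 507 lower, 0 members were called, and 1 list gene was higher and 5 lower. The block changed the call of RELA (limma adjusted p = 0.0618), and those of NFKBIE (0.0743), SHARPIN (0.0612), TRAF3 (0.0645), RBCK1 (0.0710), TNIP2 (0.0710), LTBR (0.0987) and TNFRSF1A (0.102).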
